A study of Mus musculus with 15 samples.

Results

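Mouse embryonic stem cells kept for 72 h in 250 mM sorbitol were compared with the same cells kept in 200 mM sorbitol, a step of 50 mM inside a dose series. The comparison used 6 of the 15 libraries of the study, 3 at each dose, and all 21516 gene symbols of the 2 deposited count tables, joined by symbol. A gene was tested when its counts passed a filter on low values, which 9390 genes did. The cells carried a red fluorescent protein under the promoter of Rex1 (Zfp42), a gene of undifferentiated stem cells, and the data thus describe 1 reporter line. Both sorbitol groups, and the group at 300 mM, were grown in medium that held LIF (leukaemia inhibitory factor), a cytokine that keeps mouse stem cells from differentiating. Before the sorbitol, LIF medium alone had taken them to about 24% confluence in about 18 h. The unstressed group NS (normal stemness in the labels) also kept LIF without sorbitol, and the group ND (normal differentiation) lost LIF without sorbitol. The labels describe the replicates as a triplicate biological experiment. The p-values set a difference between doses against the spread between replicate libraries, estimated over all 15 libraries.

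Sorbitol is a sugar alcohol that enters most cells poorly, so it draws water out of them and concentrates their contents. Cells answer such hyperosmotic stress by taking up or making small organic osmolytes through genes that the transcription factor Nfat5 controls, by making heat shock proteins and by slowing division. In early mouse embryos and their stem cells, stress of this kind is known for lowering growth and for switching on genes of the first extraembryonic lineages, the trophoblast of the placenta and the primitive endoderm of the yolk sac.

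The 3 libraries at 200 mM held 2216518, 982904 and 1163574 counts and the 3 at 250 mM held 1872918, 1209521 and 1194045, so that 3 counts amounted to between 1.49 and 3.14 CPM (the share of a library's counts, scaled to a common total and corrected for library composition). All 9 pluripotency markers had counts in each of the 6 libraries, and their summed level was 2596 to 2879 CPM at 200 mM and 2205 to 2905 CPM at 250 mM. Summed fibroblast markers were 13.9 to 40.8 CPM and 11.9 to 25.7 CPM, with Col3a1, Postn and Lum at 0 in all 6 libraries. Replicate 2 at 200 mM stood apart among the 6 in a group of genes. Its 16 listed immediate early genes, which cells switch on within minutes of a stimulus and which were picked here after their values were seen, summed to 1119 CPM, against 455 and 556 CPM in the other libraries of that dose and 547 to 597 CPM at 250 mM. Egr1, a transcription factor of this group, read 247 CPM there and 4.48 to 10.6 CPM in the other 5 libraries. Many results are therefore given with and without this library, and others for all libraries only. Leaving out other libraries moved results as well, as given below. In bulk RNA, fewer cells of a type and less RNA per cell cannot be told apart.

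No gene passed an adjusted p of 0.05 between 250 and 200 mM in the quasi-likelihood test of edgeR, Benjamini-Hochberg adjusted over all genes (0 of 9390, 0%), and the smallest adjusted p was 0.467. At an unadjusted p under 0.05 there were 608 genes (6.47%, where 5% would fall there if nothing differed), 186 of them higher (1.98%) and 422 lower (4.49%) at 250 mM. That imbalance depended on whether the scaling corrected for library composition, and also on the model, since the replicate block described below did not show it. Of the 608 genes 30.6% were higher, and with the size factors of DESeq2 in edgeR 31.6% of 602 were. When libraries were scaled by their totals alone, 49.2% of 565 genes were higher. That scaling moved the median change of all genes from -0.02 to 0.07 on the log2 scale. A miss of the threshold does not show that the doses acted alike, because the 95% interval of a typical gene reached 0.77 log2 units to either side of its estimate. DESeq2 called 4 genes, all lower. The 608 genes also depended on single libraries. Without replicate 1 at 200 mM 268 of them kept an unadjusted p under 0.05, the fewest for any library left out. Without replicate 2 at 200 mM 344 did, and without replicate 3 at 200 mM 487 did.

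The labels do not say what a replicate number marks, and pairing of the 2 doses by number was an assumption drawn from correlations in these same data. With the replicate number as a block 3 genes passed (0.0319%). Igf2, the insulin-like growth factor that drives fetal and placental growth, rose (1 gene higher, 0.0106%). Sfrs18 (now Pnisr), a serine- and arginine-rich protein of nuclear speckles, and Zfp937, a zinc finger gene, fell (2 lower, 0.0213%). The block placed 1314 genes at an unadjusted p under 0.05 (14.0%), 639 higher (6.81%) and 675 lower (7.19%), a share of 48.6% higher. The number of calls depended on single libraries: with the block, 0 genes passed without replicate 1 at 200 mM, replicate 2 at 200 mM, replicate 1 at 250 mM or replicate 2 at 250 mM. There were 2 calls without replicate 3 at 200 mM, Sfrs18 and Snhg11, and 10 without replicate 3 at 250 mM, which included Igf2, Sfrs18 and Zfp937.

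**Figure D1:**
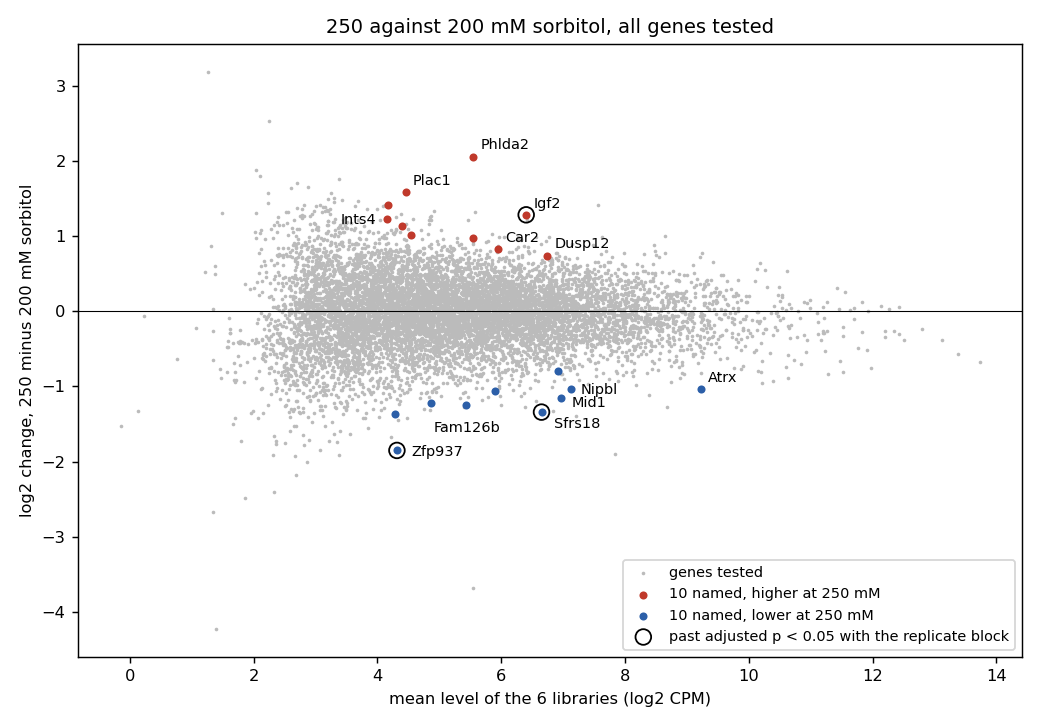
Log2 change from 200 to 250 mM sorbitol (vertical axis) against the mean level over the 6 libraries (horizontal axis, log2 CPM) for the 9390 genes tested. Coloured points are the 10 genes per direction with the smallest unadjusted p among those whose libraries do not overlap and whose higher group has a mean of 20 CPM or more, and circles mark Igf2, Sfrs18 and Zfp937, which passed with the replicate block.

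Igf2 read 50.8, 60.7 and 36.7 CPM in replicates 1, 2 and 3 at 200 mM and 116, 156 and 87.9 CPM at 250 mM. Every library at 250 mM lay above every library at 200 mM, and within pairs of 1 number the log2 differences were 1.17, 1.34 and 1.23. The fitted change was 1.28 ± 0.28 (SE, 95% interval 0.69 to 1.87), and edgeR's adjusted p was 0.467 without the block and 0.0278 with it. Unstressed cells held 2.74 ± 0.864 CPM (SD, n = 3), and cells at 300 mM held 82.7 ± 11.6 CPM, between the 2 lower doses.

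Imprinted genes, of which only the maternal or the paternal copy is active, had Igf2 as their 1 called member with the block. Of 18 listed genes 12 were tested, 0 passed without the block, and 9 had a positive and 3 a negative change, with a median of 0.34 on the log2 scale against -0.02 over all genes tested. Without replicate 2 at 200 mM the median of the list was 0.29. In 4 of the 12 every library at 250 mM was above every library at 200 mM, and in 1 every library was below, where 5.57% and 6.36% of all genes were. Phlda2, which restrains placental growth, read 19.9, 19.9 and 14.7 CPM at 200 mM and 108, 69.1 and 49.9 CPM at 250 mM. Its groups did not overlap, with a change of 2.06 ± 0.58 (95% interval 0.82 to 3.29) and an adjusted p of 0.653 (0.147 with the block). It did pass with the block on fewer libraries, at an adjusted p of 0.000607 on these 6 and 0.00632 on the 9 sorbitol libraries, and at 0.00425 with no filter on low counts. Cdkn1c, an inhibitor of cyclin-dependent kinases, read 16.9, 13.6 and 19.6 CPM and then 29.3, 32.5 and 24.5 CPM, again without overlap (0.78 ± 0.40, adjusted p = 0.775). Peg10, a retrotransposon-derived gene needed for the placenta, overlapped between doses at 223, 137 and 110 CPM and 293, 198 and 130 CPM (0.40 ± 0.34, 95% interval -0.31 to 1.11). Meg3, a maternally expressed long non-coding RNA, lay the other way, at 136, 70.1 and 53.9 CPM at 200 mM and 48.7, 27.0 and 43.6 CPM at 250 mM (-1.13 ± 0.48, adjusted p = 0.758).

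Phlda2, Cdkn1c and the trophoblast factor Ascl2 lie in 1 imprinted domain with Kcnq1ot1, a long non-coding RNA made from the paternal copy that silences these neighbours in cis. Kcnq1ot1, named after its values were seen, read 137, 74.3 and 142 CPM at 200 mM and 65.5, 38.9 and 69.7 CPM at 250 mM. Its libraries did not overlap, and its paired differences were -1.05, -0.91 and -1.01 (fitted -1.02 ± 0.33, 95% interval -1.71 to -0.34, adjusted p = 0.653). Ascl2 read 17.4, 14.6 and 5.72 CPM and then 41.9, 23.8 and 14.3 CPM, with overlap between the doses (1.07 ± 0.58). The domain as a whole, also listed after values were seen, did not shift to one side: of 12 genes 8 were tested, 5 positive and 3 negative, with a median of 0.14. The counting's strand setting is not stated in any source used here, so reads of Kcnq1ot1 and of the overlapping gene Kcnq1 cannot be told apart. Kcnq1 itself was given 0 counts at both doses.

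The trophoblast list had the highest median of the lists with at least 5 members tested, at 0.71 on the log2 scale. Of 19 genes 16 were tested and 0 passed with or without the block. There were 13 positive and 3 negative changes, and 7 of the 16 had every library at 250 mM above every library at 200 mM, as 5.57% of all genes did. The median of the paired differences was 0.75, 0.81 and 0.40 in replicates 1, 2 and 3. The median of the fitted changes was 0.66 without replicate 2 at 200 mM, and it ran from 0.50 to 0.79 with 1 library left out. Plac1, a membrane-associated protein made by trophoblast, read 5.97, 10.5 and 17.1 CPM at 200 mM and 39.3, 23.8 and 34.8 CPM at 250 mM, without overlap. Its change was 1.58 ± 0.43 (95% interval 0.68 to 2.48), and edgeR's adjusted p was 0.653, or 0.149 with the block.

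Gata2, a transcription factor of trophoblast, read 8.46, 6.28 and 14.7 CPM and then 17.3, 29.4 and 23.0 CPM, and the groups did not overlap (1.22 ± 0.44, adjusted p = 0.688). Of the keratins of simple epithelia, Krt8 and Krt7 had positive changes and Krt18 had no clear direction. Krt8 read 53.8, 35.6 and 64.5 CPM at 200 mM and 138, 108 and 112 CPM at 250 mM (1.21 ± 0.52, adjusted p = 0.758), and Krt7 read 15.9, 5.23 and 18.8 CPM and then 32.5, 33.3 and 26.1 CPM (1.16 ± 0.41, adjusted p = 0.688), both without overlap. Without replicate 2 at 200 mM the changes were 1.01 for Krt8 and 0.83 for Krt7. Krt18, the filament partner of Krt8, overlapped at 314, 56.5 and 139 CPM and 216, 118 and 114 CPM. Its change was -0.19 ± 0.47 (95% interval -1.19 to 0.80), and it was 0.61 without replicate 1 and -0.60 without replicate 2 at 200 mM, so no direction can be given. Krt8 and Krt18 both have near-identical pseudogene copies, and their counts depend on how shared reads were assigned. The summed markers of trophoblast were 480 to 1006 CPM at 200 mM and 725 to 914 CPM at 250 mM, overlapping. The largest members of that sum were Tfap2c, with means of 414 and 395 CPM, and Krt18, with 170 and 150 CPM. Cdx2, the factor that specifies the lineage, had too few counts to be tested, at 1 count over the 3 libraries at 200 mM and 11 at 250 mM, and Elf5 had 1 and 7.

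**Figure D2:**
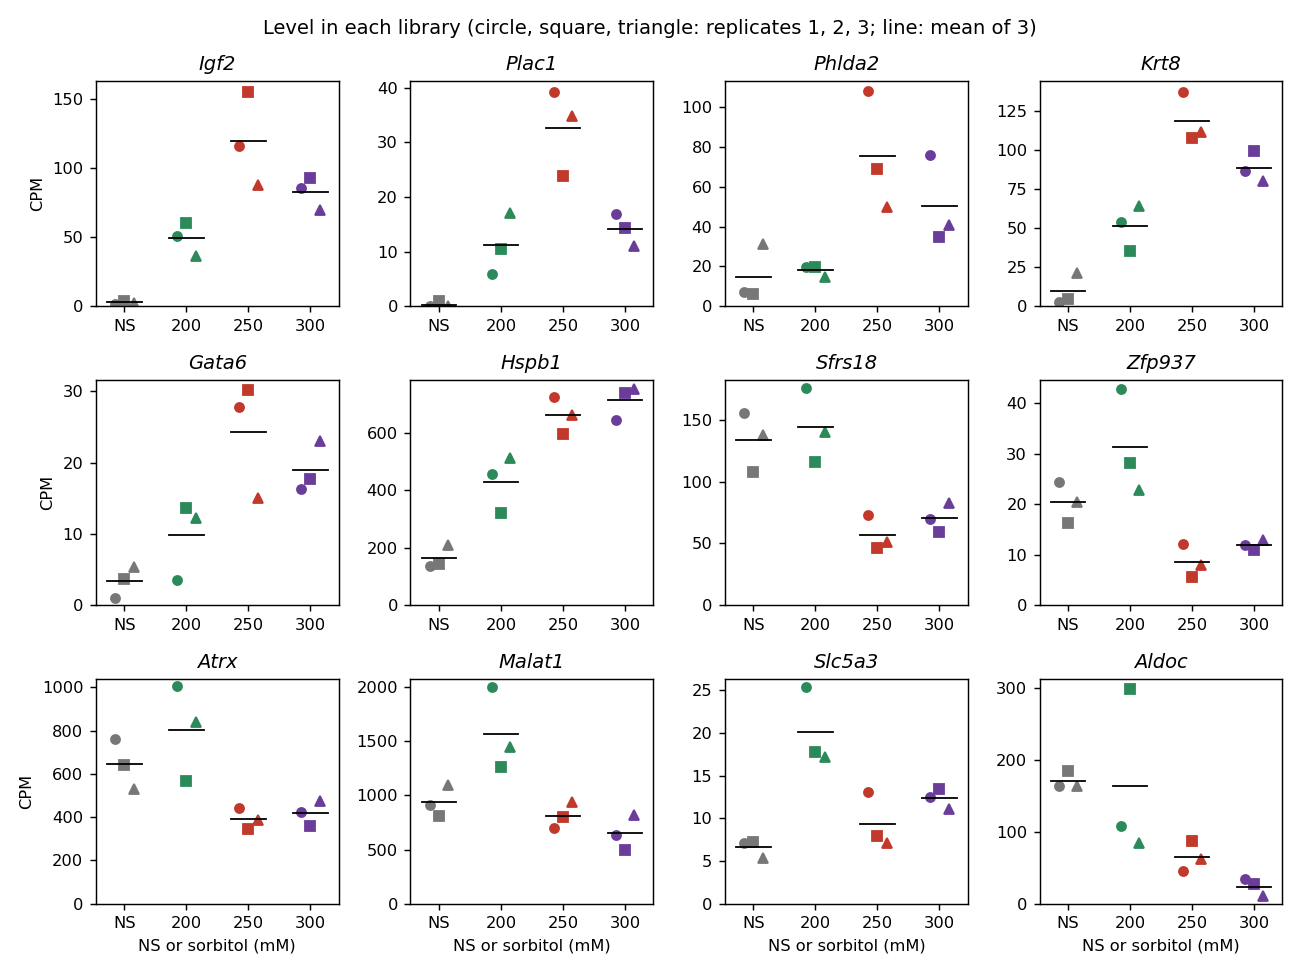
CPM of 12 genes (vertical axes, each from 0) in NS and at 200, 250 and 300 mM sorbitol, 1 point per library with its shape for the replicate number and a line at the mean of 3. For Igf2, Plac1, Phlda2, Krt8, Gata6 and Hspb1 every point at 250 mM lies above every point at 200 mM. For Sfrs18, Zfp937, Atrx, Malat1 and Slc5a3 every point lies below, and for Aldoc the groups overlap.

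Primitive endoderm genes were mostly too rare to test, with 5 of 14 tested, 4 positive and 1 negative, and a median of 0.44 that was 0.16 without replicate 2 at 200 mM. Gata6, the factor that starts this lineage, read 3.48, 13.6 and 12.2 CPM at 200 mM and 27.8, 30.2 and 15.05 CPM at 250 mM. The 2 groups did not overlap, but the paired differences ran from 2.57 in replicate 1 to 1.07 and 0.27 in replicates 2 and 3. The fitted change was 1.40 ± 0.52 (95% interval 0.30 to 2.50, adjusted p = 0.688). The members below the filter went both ways over the 3 libraries of each dose. Sox17, an endoderm factor, had 8 counts at 200 mM and 25 at 250 mM, and Pdgfra, a receptor, had 8 and 18. Sox7 had 1 and 7, Fst had 1 and 8, and Afp had 6 and 7. The factor Gata4 had 12 and 9, Hnf4a had 7 and 4, and Cubn, an endocytic receptor, had 5 and 2. Ttr had 0 at both doses. The summed markers of primitive endoderm overlapped, at 868 to 1655 CPM and 883 to 1356 CPM. That sum was mostly Sparc, with means of 993 CPM at 200 mM and 921 CPM at 250 mM, so it says little of the rarer markers.

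Among the other genes higher at 250 mM by the smallest unadjusted p, each had 3 non-overlapping libraries per group and an adjusted p of 0.61 or 0.653. Ints4, a subunit of the Integrator complex that trims small nuclear RNAs, stood at 10.6 ± 1.44 CPM and 25.02 ± 2.86 CPM (SD, n = 3), a change of 1.23 ± 0.32. Ldoc1, a retrotransposon-derived gene expressed in placenta, stood at 9.55 ± 4.63 and 26.6 ± 4.34 CPM (1.41 ± 0.41). Car2, a carbonic anhydrase that handles acid and bicarbonate, stood at 44.9 ± 4.997 and 78.9 ± 16.5 CPM (0.82 ± 0.24). Dusp12, a dual-specificity phosphatase, stood at 80.2 ± 14.1 and 134 ± 9.75 CPM (0.74 ± 0.22). The log2 difference was 1.02 ± 0.30 for Ddx51, a DEAD-box RNA helicase, 0.98 ± 0.29 for Oxnad1, an oxidoreductase-domain gene, and 1.13 ± 0.32 for Pqlc1, a membrane protein gene.

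With the replicate block, Sfrs18 had the smallest adjusted p of the genes that were lower. It read 176, 116 and 140 CPM at 200 mM and 72.8, 46.0 and 51.5 CPM at 250 mM, and unstressed cells held 134 ± 24.1 CPM. The 200 mM libraries thus lay about the unstressed level and all 250 mM libraries below them. Its change was -1.34 ± 0.29 (95% interval -1.94 to -0.74), and the adjusted p was 0.467 in edgeR, 0.0209 with the block and 0.0402 in DESeq2. Zfp937 read 42.8, 28.2 and 22.9 CPM at 200 mM and 12.05, 5.56 and 7.92 CPM at 250 mM, without overlap (-1.85 ± 0.40, adjusted p = 0.467, and 0.0357 with the block). Zinc finger genes of its kind lie in clusters of close copies, so its count may include reads of relatives.

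The other 8 genes named at this end passed neither with nor without the block over all 15 libraries. Nipbl, which loads cohesin onto DNA, read 248, 142 and 176 CPM at 200 mM and 99.0, 86.5 and 91.1 CPM at 250 mM. All its libraries at 250 mM were lower, and the spread among them was also smaller (-1.04 ± 0.23, adjusted p = 0.467, 0.062 with the block and 0.0402 in DESeq2). Atrx, a chromatin remodeller that keeps repeats silent, read 1007, 567 and 838 CPM and then 441, 345 and 387 CPM, without overlap (-1.04 ± 0.25, adjusted p = 0.542, 0.0671 with the block, and 0.0353 with it on the 9 sorbitol libraries). Fam126b, whose product belongs to a family that holds a lipid kinase at the cell membrane, read 58.2, 58.6 and 65.3 CPM and then 28.3, 19.05 and 29.3 CPM. Its change was -1.24 ± 0.25 (adjusted p = 0.467, 0.096 with the block and 0.0402 in DESeq2). The splicing factor gene Zranb2 stood at 153 ± 11.1 and 88.3 ± 8.63 CPM (-0.79 ± 0.19, adjusted p = 0.542, and 0.0402 in DESeq2). The log2 difference was -1.15 ± 0.27 for Mid1, a ubiquitin ligase on microtubules (adjusted p = 0.0353 in edgeR with the block on the 9 sorbitol libraries), -1.06 ± 0.26 for Golgb1, which encodes the Golgi protein giantin, and -1.23 ± 0.29 for Arl13b, a small GTPase of cilia. For the unnamed transcript 9930021J03Rik it was -1.37 ± 0.34.

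Long RNAs that stay in the nucleus were lower together, a group listed after its values were seen and so given as a description. Of 11 genes 8 were tested, all 8 changes were negative, and the median was -1.02. With 1 library left out the median ran from -1.22, without replicate 2 at 200 mM, to -0.82. Their summed level was 2751, 1766 and 1920 CPM in replicates 1, 2 and 3 at 200 mM and 984, 993 and 1216 CPM at 250 mM, without overlap. Unstressed cells lay between, at 1549, 1398 and 1749 CPM. Malat1, an abundant RNA of nuclear speckles, read 2000, 1263 and 1440 CPM and then 699, 799 and 935 CPM (-0.95 ± 0.24, 95% interval -1.46 to -0.44, adjusted p = 0.542). Neat1, the scaffold of paraspeckles, read 267, 192 and 180 CPM and then 85.4, 65.1 and 92.6 CPM (-1.40 ± 0.52, adjusted p = 0.688, and 0.154 with the block). With the block on fewer libraries Neat1 passed, at an adjusted p of 0.00823 on these 6 and 0.013 on the 9 sorbitol libraries. The smaller members did not all separate: Xist overlapped between doses (-1.01 ± 0.62) and so did Snhg11 (-1.28 ± 0.34).

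The genes with a lower level also had longer transcripts, by the longest annotated one per gene, a measure that took no part in choosing them. Genes lower at an unadjusted p under 0.05 had a median transcript of 4421 bases (418 genes with a length), against 3386 bases over all genes with a length and 2989 bases for the 185 genes that were higher. Their median GC content was 45.9%, against 49.8% and 51.5%. Over the decile of genes with the longest transcripts, with a median of 8299 bases, the median change was -0.20 and 31.0% of changes were positive, while the decile with the shortest had a median of 0.04. The paired differences in the longest decile were -0.24, -0.10 and -0.18, and relative to all 15 libraries its level was 0.20, 0.01 and 0.13 at 200 mM and -0.04, -0.09 and -0.07 at 250 mM. The decile of lowest GC content had a median of -0.16, with paired differences of 0.02, -0.17 and -0.28, so that the pair of replicate 1 did not share it. The counts are of 3' tags, and RNA integrity was not measured in the files. The parts of RNA integrity, transcript length and GC content in these differences were not tested.

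**Figure D3:**
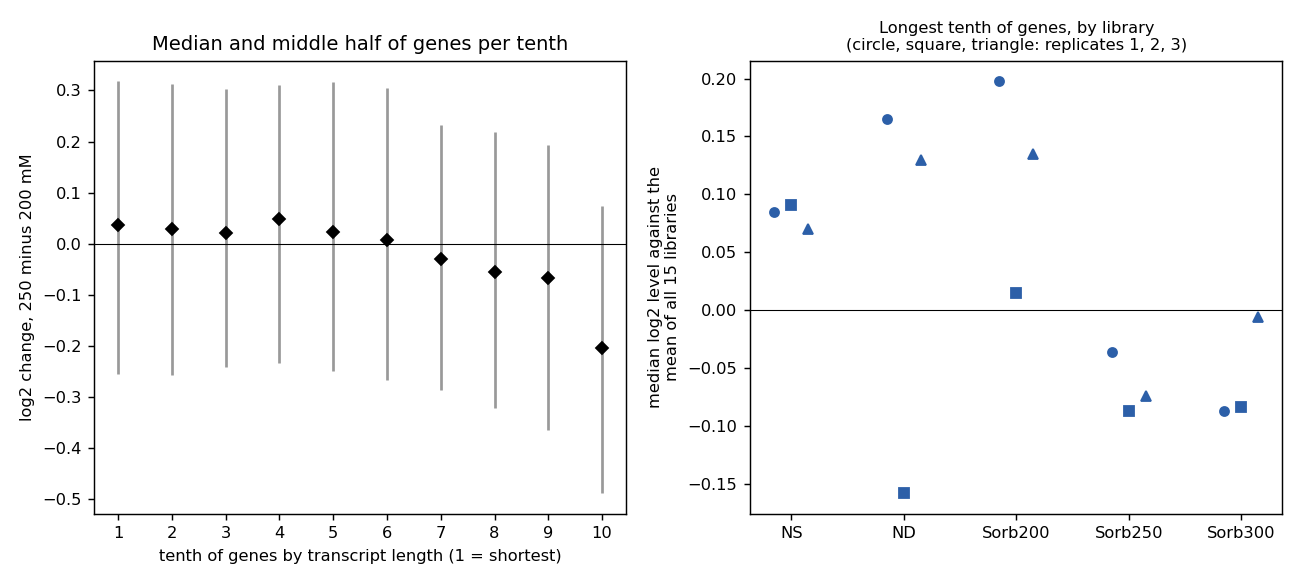
On the left, the log2 change from 200 to 250 mM by decile of transcript length, as the median (diamond) and the interquartile range (line) of about 934 genes each, with the lowest median, -0.20, in the longest decile. On the right, the median log2 level of the longest decile in every library relative to the mean of all 15, where all 3 libraries at 250 mM lie below 0 and all 3 at 200 mM above 0.

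The osmolyte genes, the classical response to a concentrated medium, did not shift as a group between the doses. Of 15 listed genes 8 were tested, 0 passed, 5 changes were positive and 3 negative, and the median was 0.13, or 0.08 without replicate 2 at 200 mM. Slc5a3, the sodium-coupled myo-inositol transporter and a target of Nfat5, read 25.4, 17.8 and 17.1 CPM at 200 mM and 13.1, 7.94 and 7.13 CPM at 250 mM. It was thus lower in every library of the higher dose (-1.08 ± 0.34, 95% interval -1.80 to -0.36, adjusted p = 0.653), while unstressed cells held 6.60 ± 1.08 CPM. The taurine transporter Slc6a6 overlapped between doses, at 77.6, 162 and 202 CPM and 171, 244 and 235 CPM (0.56 ± 0.35, 95% interval -0.17 to 1.30). Akr1b8, an aldo-keto reductase, overlapped as well (0.30 ± 0.40, 95% interval -0.55 to 1.15), and its change was 0.033 without that library. Akr1b3, the aldose reductase that makes sorbitol from glucose, had 18 counts over the libraries at 200 mM and 28 at 250 mM, too few to test.

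Heat shock and chaperone genes had a median change of 0.18, with 18 of 19 tested, 0 called, and 12 positive and 6 negative. Hspb1, the small heat shock protein that guards the cytoskeleton, read 456, 321 and 511 CPM at 200 mM and 726, 595 and 662 CPM at 250 mM. The groups did not overlap (0.62 ± 0.24, 95% interval 0.12 to 1.12, adjusted p = 0.707). The change of Hspb1 was 0.45 without replicate 2 at 200 mM. Hspa1b, the stress-induced Hsp70, read 4.98, 7.32 and 3.27 CPM and then 7.86, 11.1 and 15.05 CPM (1.13 ± 0.57), and it shares nearly all of its sequence with Hspa1a. Of the 20 antioxidant and metallothionein genes, all tested and 0 called, 8 were positive and 12 negative. The metallothionein Mt1, which binds zinc and copper, read 182, 214 and 202 CPM and then 104, 138 and 76.0 CPM, without overlap (-0.91 ± 0.27, adjusted p = 0.653).

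Glycolysis, oxygen-responsive and cholesterol genes had negative medians, and replicate 2 at 200 mM was the highest library for many of them. Glycolysis had 21 of 22 genes tested, 7 positive and 14 negative, a median of -0.45, and paired medians of -0.86, -0.38 and -0.07. Without replicate 2 at 200 mM the median was -0.33. Aldoc, an aldolase, read 108, 298 and 84.1 CPM and then 45.6, 86.5 and 62.6 CPM, with overlap, and its change of -1.33 ± 0.49 was -0.58 without that library. Gpi1, which makes fructose 6-phosphate, read 601, 884 and 364 CPM and then 307, 385 and 306 CPM, and its change of -0.89 ± 0.31 was -0.54 without it. Pfkfb3, which makes the activator of phosphofructokinase, did not rest on it, at 34.8, 43.9 and 44.9 CPM and then 15.2, 27.8 and 18.2 CPM (-1.02 ± 0.40, adjusted p = 0.721).

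The oxygen-responsive list, targets of hypoxia-inducible factor, had 14 of 16 tested, 3 positive and 11 negative, with a median of -0.44 and of -0.37 without replicate 2 at 200 mM. Its paired medians were -0.46, -0.54 and -0.34, so that all 3 pairs shared the sign. Egln3, the prolyl hydroxylase that marks the factor for destruction and is itself induced by it, read 32.4, 57.5 and 29.4 CPM and then 10.998, 23.02 and 22.96 CPM (-1.07 ± 0.40, adjusted p = 0.688). Its change was -0.73 without replicate 2 at 200 mM. The cholesterol list had 22 of 25 tested, 2 positive and 20 negative, with a median of -0.42 and of -0.22 without replicate 2 at 200 mM. Sc4mol, a sterol oxidase of that pathway, read 119, 319 and 135 CPM and then 94.3, 121 and 105 CPM, and its change of -0.83 ± 0.34 was -0.25 without that library. The list of fatty acid synthesis had 12 of 13 tested, 4 positive and 8 negative, with a median of -0.22 and of -0.15 without replicate 2 at 200 mM. From this list the desaturase Scd1 read 101, 245 and 109 CPM and then 53.4, 88.9 and 83.9 CPM. Its change of -1.004 ± 0.37 was -0.49 without that library. No gene of these 4 lists passed.

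**Figure D4:**
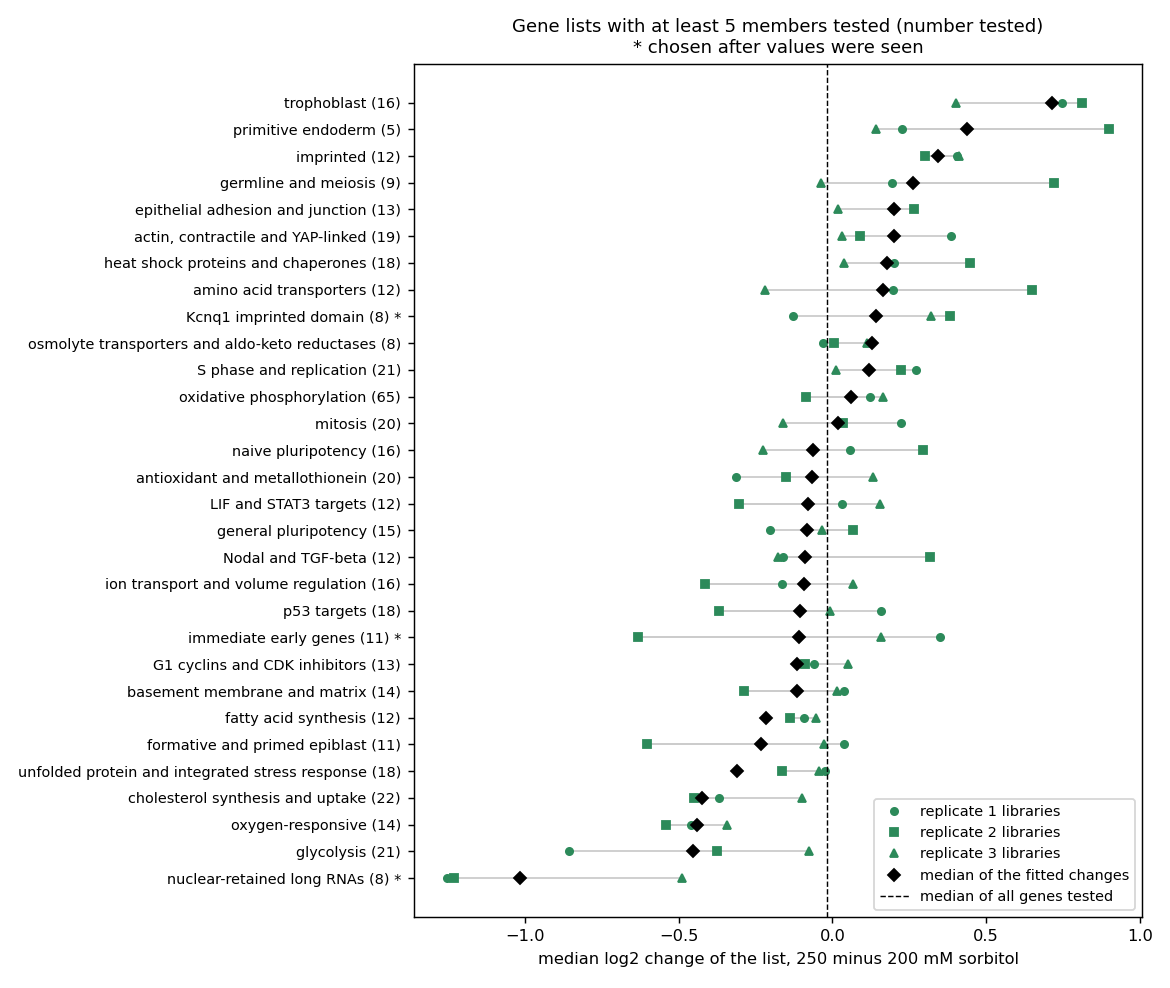
Median log2 change from 200 to 250 mM of each list with at least 5 members tested (horizontal axis, number tested in brackets), as the fitted median (diamond) and the medians of the 3 same-numbered pairs of libraries (circle, square, triangle). The trophoblast list lies at 0.71 and glycolysis at -0.45, the nuclear-retained RNAs at -1.02 were listed after values were seen, and the dashed line is the median of all genes at -0.02.

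The pluripotency lists had medians close to that of all genes. The naive list had 16 of 18 tested, 6 positive and 10 negative (median -0.06, and -0.19 without replicate 2 at 200 mM), and the general list had 15 of 15 tested, 7 positive and 8 negative (median -0.08, and -0.14 without it), with 0 called in either. Zfp42, whose promoter drives the reporter, read 229, 72.2 and 292 CPM at 200 mM and 141, 234 and 237 CPM at 250 mM. Its libraries spread so widely that the interval of its change, -1.22 to 1.29 around 0.04, holds more than a doubling in either direction. The change was -0.35 without replicate 2 at 200 mM, its lowest library. Nanog, a core factor of pluripotency, read 82.6, 113 and 292 CPM and then 143, 230 and 251 CPM (0.36 ± 0.58, 95% interval -0.87 to 1.59). Its change was 0.16 without that library and ran from 0.032 to 1.09 with 1 library left out. Sox2, which binds DNA with Pou5f1, read 535, 516 and 459 CPM and then 313, 391 and 453 CPM, without overlap although replicate 3 hardly differed (-0.38 ± 0.30, adjusted p = 0.863). The difference of Pou5f1 (Oct4) was -0.29 ± 0.40 (95% interval -1.12 to 0.55), and its pseudogenes could share its reads. Klf4, a target of LIF signalling, overlapped at 829, 530 and 298 CPM and 399, 324 and 334 CPM (-0.65 ± 0.37). Dnmt3b, the de novo DNA methyltransferase that increases when cells leave the naive state, read 250.4, 181 and 260.5 CPM and then 419, 311 and 341 CPM, without overlap (0.63 ± 0.21, 95% interval 0.19 to 1.07, adjusted p = 0.673). Its list, the formative and primed epiblast genes, lay mostly the other way, with 11 of 14 tested, 3 positive and 8 negative, and a median of -0.23, or -0.09 without replicate 2 at 200 mM.

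Genes of the cell cycle went both ways within each list. Mitosis had 20 of 20 tested, 10 positive and 10 negative (median 0.02, and 0.15 without replicate 2 at 200 mM). Top2a, the topoisomerase that untangles replicated DNA, read 923, 902 and 669 CPM at 200 mM and 532, 599 and 590 CPM at 250 mM, without overlap (-0.54 ± 0.20, adjusted p = 0.708). Ube2c, which feeds the anaphase-promoting complex, lay the other way, at 311, 223 and 248 CPM and then 348, 602 and 410 CPM (0.80 ± 0.35, adjusted p = 0.758). S phase genes had 13 positive and 8 negative of 21 (median 0.12), and Mcm2 of the replicative helicase read 95.6, 178 and 188 CPM and then 209, 248 and 238 CPM (0.60 ± 0.25, adjusted p = 0.758). Of the p53 targets, 18 of 20 were tested, 6 positive and 12 negative, with a median of -0.11 that was 0.09 without replicate 2 at 200 mM. Mdm2, the ligase that degrades p53, read 528, 889 and 396 CPM and then 434, 333 and 333 CPM, and its change of -0.72 ± 0.29 was -0.34 without that library. Over all 30 lists, which held 447 distinct genes tested, 0 genes passed without the block.

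None of the matrix, transport or respiration lists held a called gene. Basement membrane and matrix genes had 14 of 15 tested, 5 positive and 9 negative (median -0.12, and -0.01 without replicate 2 at 200 mM). Among them Nid2, which links laminin to collagen, read 18.9, 24.1 and 17.96 CPM and then 7.33, 6.35 and 8.71 CPM, without overlap (-1.42 ± 0.45, 95% interval -2.38 to -0.47, adjusted p = 0.653). The unfolded protein response had 6 positive and 12 negative of 18, with a median of -0.31 that was -0.13 without replicate 2 at 200 mM. Amino acid transporters had 12 of 15 tested, 8 positive and 4 negative (median 0.17, and 0.0051 without that library), and Slc7a5, which carries large neutral amino acids, overlapped at 29.4, 80.6 and 76.8 CPM and 74.4, 129 and 131 CPM (0.86 ± 0.36, adjusted p = 0.758). Actin, contractile and YAP-linked genes had 19 of 23 tested, 13 positive and 6 negative (median 0.20, and 0.31 without it). Oxidative phosphorylation had 65 of 67 tested, 37 positive and 28 negative (median 0.06, and 0.15 without it), and 7 of the 65 had every library at 250 mM above every library at 200 mM, against 5.57% of all genes. Ion transport and volume regulation, the first defence of a shrunken cell, had 16 of 17 tested, 7 positive and 9 negative (median -0.09, and -0.06 without it).

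The step from 250 to 300 mM was set beside the step from 200 to 250 mM, and both share the 250 mM libraries. From 250 to 300 mM 0 of 9390 genes passed in edgeR's test (0%), and 138 had an unadjusted p under 0.05 (1.47%). The difference between the 2 steps was tested for each gene, and 0 passed (0%). Its smallest adjusted p was 0.999707 without the block and 0.438 with it, and 145 genes had an unadjusted p under 0.05 (1.54%), 521 with the block (5.55%). The log2 differences over the first and the second step were 1.28 ± 0.28 and -0.53 ± 0.27 for Igf2, 1.58 ± 0.43 and -1.20 ± 0.41 for Plac1, and 2.06 ± 0.58 and -0.58 ± 0.54 for Phlda2. Plac1 stood at 32.6 ± 7.96 CPM at 250 mM and 14.1 ± 2.91 CPM at 300 mM, near its 11.2 ± 5.62 CPM at 200 mM. They were -1.34 ± 0.29 and 0.31 ± 0.29 for Sfrs18, and -1.04 ± 0.23 and -0.02 ± 0.23 for Nipbl. For Egln3 they were -1.07 ± 0.40 and -2.42 ± 0.51, and it read 3.49 ± 1.93 CPM at 300 mM. Because a high or low level at 250 mM enters both steps with opposite signs, opposite signs of the 2 steps are no evidence of a turn in the dose response.

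Each dose was also set beside unstressed cells, where the 2 comparisons share the NS libraries. At 200 mM 55 of 9390 genes passed (0.586%), 38 of them higher (0.405%) and 17 lower (0.181%), and at 250 mM 420 passed (4.47%), 189 of them higher (2.01%) and 231 lower (2.46%). The larger number at 250 mM is no test of the step, which the comparison of the doses gives and where 0 genes passed. Igf2 was 4.198 above NS at 200 mM (adjusted p = 4.32e-05) and 5.48 above it at 250 mM (adjusted p = 6.5e-07) on the log2 scale in edgeR's test, and Plac1 was 5.09 and 6.67 above, fitted values that depend on the prior count since NS held 0.303 ± 0.525 CPM. Phlda2 was 0.34 above NS at 200 mM (adjusted p = 0.909) and 2.39 above at 250 mM (adjusted p = 0.0321). Nipbl was 0.01 above NS at 200 mM (adjusted p = 0.995) and at -1.03 at 250 mM (adjusted p = 0.0195). For these 2 genes the threshold was passed at 1 dose and not at the other, while the doses themselves differed with an adjusted p of 0.653 and 0.467.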

How the data were processed

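Per the submitters' processing notes, base calling used CASAVA 1.8.2, alignment STAR, counting HTSeq and the authors' tests edgeR, on mouse build mm9. The sources used here name no other version, annotation or strand setting. Counts, as deposited, are whole numbers per gene symbol from Lexogen's 3' QuantSeq protocol, per the labels. The deposited signal columns (group means of raw counts and their SDs), the authors' log2 columns, fold column, likelihood ratio score and p-value and FDR columns were not used for tests, and 0 columns lacked a sample.

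Tests used edgeR 4.0.16 (glmQLFit, glmQLFTest; TMM factors; filterByExpr with minimum count 10 and total 15) in R 4.3.3, on all 15 libraries with 1 coefficient per group, Benjamini-Hochberg adjustment over 9390 genes and a threshold of 0.05. An SE is the absolute log2 change over the square root of F, so it adds no evidence to the test. CPM use TMM factors, ± without further mark is the SE, and errors of CPM are the SD over 3 libraries. DESeq2 1.42.0, other scalings, no filter, fewer libraries and a replicate block were alternatives, and the scripts were tested on simulated data. The labels give the groups the same replicate numbers. Deviations from the group means correlated by 0.34, 0.16 and 0.20 between the 200 and 250 mM libraries of replicates 1, 2 and 3, all above 0.1, which was taken as pairing. Replicates of a group differed by more than sampling noise (chi-square per degree of freedom 2.09 to 14.4). Counts of genes with near-identical copies (Gpi1, Aldoa and others with pseudogenes) are uncertain.

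The comparison, its members and all lists were chosen with earlier results of these data known. Named genes were 14 fixed ones, the 10 per direction with the smallest p, at least 20 CPM and no overlap, and up to 4 per list by smallest p. Kcnq1ot1, Ascl2, Xist, Snhg11, Malat1, Neat1, Egr1, the genes below the filter and those given for another fit's calls were chosen after their values were seen. Transcript length and GC content came from GENCODE M21, whose build differs from mm9, for 9341 genes (99.5%). They are those of the longest annotated transcript of a gene, which need not be the one expressed. Genes were matched by their deposited Ensembl identifier. Dusp1 and Dusp12 carried the same one, so some values may belong to another gene.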

Additional observations from a re-analysis of the deposited data

How the results depend on the processing

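The count of genes past the threshold between 250 and 200 mM was 0 without the replicate block and also 0 with DESeq2's size factors in edgeR, with library totals, with the 6 or the 9 sorbitol libraries alone, with replicates 2 and 3 only, and without each of the 6 libraries in turn (0 to 0). It was 3 with the replicate block, 4 in DESeq2 (Fam126b, Zranb2, Sfrs18 and Nipbl, all lower) and 4 with no filter on low counts (1 higher and 3 lower of 17397 genes). With the replicate block it was 8 on the 6 libraries alone, 8 on the 9 sorbitol libraries and 0 to 10 without each of the 6 libraries in turn. The count for the difference between the 2 dose steps stayed 0 under every alternative run, the replicate block included, with 0 to 0 when 1 library was left out, and library totals moved its median over all genes to -0.13. The blocks on fewer libraries, the blocks with 1 library left out and the fit of replicates 2 and 3 were chosen after seeing the data. Over all 15 libraries the block changed the call of no named gene other than Igf2, Sfrs18 and Zfp937. On fewer libraries it also called, among the named genes, Phlda2, Neat1, Usmg5, Cited2, Nr0b1, Atrx, Mid1 and Snhg11, each in at least 1 of those fits. Without replicate 3 at 250 mM it further called Wdr75, Clk3, Cep290, Prr14 and Id3.

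Of 81 genes 78 kept their sign in all alternatives. Krt18 (-0.19) ran from -0.60 to 0.61 over the 6 fits without 1 library, with 0.61 without replicate 1 at 200 mM, and it was 0.22 with replicates 2 and 3 only and 0.027 with the block on the 6 libraries. With the block it was also 0.40, 0.025 and 0.14 without replicate 1 at 200 mM, replicate 1 at 250 mM and replicate 3 at 250 mM. Zfp42 (0.04) ran from -0.35 (without replicate 2 at 200 mM) to 0.42 and was negative without replicates 2 and 3 at 250 mM as well, and with the block it was -0.28 and -0.30 without replicate 2 at 200 mM and at 250 mM. Akr1b8 (0.30) ran from 0.033 to 0.56, and with the block it was -0.13 without replicate 2 at 200 mM. Depth limits genes under about 10 counts, which were not tested.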

Other observations

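Some genes differed between replicate numbers at least as much as between doses. Usmg5, a subunit of the mitochondrial ATP synthase chosen after its values were seen, read 22.9, 80.6 and 207 CPM in replicates 1, 2 and 3 at 200 mM and 120.0, 318 and 386 CPM at 250 mM. The groups overlapped, the replicate with the lower level was the same at both doses, and the paired differences were 2.32, 1.96 and 0.89. Its change was 1.41 ± 1.01 (adjusted p = 0.844, and 0.151 with the block, in edgeR's test), and it passed with the block on the 6 libraries alone (0.000607) and on the 9 sorbitol libraries (0.0259). Nr0b1 (Dax1), a nuclear receptor of naive stem cells, read 2.49, 9.42 and 40.0 CPM and then 21.996, 42.9 and 64.1 CPM (1.34 ± 0.87, adjusted p = 0.823, 0.151 with the block and 0.0449 with it on the 6 libraries). Cited2, a transcriptional co-regulator needed in early development, read 9.46, 24.1 and 49.0 CPM and then 52.9, 74.6 and 75.2 CPM without overlap (1.32 ± 0.66, adjusted p = 0.769, 0.121 with the block and 0.0387 with it on the 6 libraries).

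Below the filter, the immediate early gene Fos had 45 counts over the libraries at 200 mM and 3 at 250 mM. It was among the 4 calls made with no filter, as was Egr1 (edgeR's adjusted p = 2.68e-05). With the filter the change of Egr1 was -3.68, and it was -0.14 without replicate 2 at 200 mM. No change of Fos without that library is given here. H19, the maternally expressed RNA beside Igf2, had 6 and 12 counts.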
